A study of Mus musculus with 55 samples.

Results

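The comparison set 3 deeply sequenced libraries of oocytes from Dhx36-deficient mice, rhau-sko5, rhau-sko7-DRB and rhau-sko8-DRB, against 3 of oocytes from control mice, c1, c2 and c3-DRB. These were 6 of the 55 samples of the series. They were chosen by depth: all 6 held at least 23010562 counts, whereas rhau-sko6 with 127927 counts and c4-DRB with 129192 counts were left out. The Dhx36-deficient oocytes came from Dhx36fl/fl;SKO mice, in which both copies of the gene are floxed. The labels do not expand SKO, do not name the Cre driver or the strain, and give no age. RNA was polyadenylated RNA of isolated oocytes, with ovary as the tissue. Libraries with DRB in their name were from oocytes given 5,6-dichloro-1-β-D-ribofuranosylbenzimidazole, a blocker of transcription elongation, at a dose and for a time that the labels do not state. DRB was a term in the model, because rhau-sko had 1 library without it and 2 with it, and c had 2 without it and 1 with it.

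DHX36, also called RHAU or G4R1, is a DEAH-box helicase that unwinds G-quadruplexes, stacked structures that guanine-rich DNA and RNA can fold into. Growing oocytes transcribe and store a large stock of maternal mRNA, and near full growth they fall transcriptionally silent, so that storage, polyadenylation and decay of mRNA then set what the egg can translate. DRB inhibits CDK9, the kinase of P-TEFb that releases paused RNA polymerase II into elongation.

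Levels below are CPM, reads of a gene per 1e+06 counted reads, on library sizes scaled by the trimmed mean of M-values, and the values of a group follow its replicate numbers (5, 7 and 8, or 1, 2 and 3). Sums over a gene list are CPM on the plain library totals, without that scaling, and include members below the filter on low counts. Fold changes are log2 of rhau-sko over c with the DRB term in the model, with a standard error (SE), and a gene was called at a Benjamini-Hochberg adjusted p under 0.05 in edgeR's quasi-likelihood test. The 6 libraries held between 23010562 and 40968105 counts. Correlations of log2 CPM across genes were 0.965 to 0.969 within rhau-sko, 0.976 to 0.983 within c and 0.915 to 0.925 between the groups. No label says that the libraries came from separate mice, so p-values measure the spread between these samples, which may be technical. In such bulk samples, fewer cells of a type and less RNA per cell cannot be told apart.

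Dhx36 (chr3:62273961-62310926, minus strand, in the mm9 coordinates of the count table) had 7.70, 4.42 and 5.73 CPM in the rhau-sko libraries, against 47.3, 42.5 and 38.2 CPM in the c libraries. All 3 rhau-sko libraries lay well below all 3 c libraries. The log2 fold change was -2.72 ± 0.17 (SE; edgeR adjusted p = 2.4e-06). A residual count remained in every rhau-sko library. The labels do not say which exons are deleted, and the counts are per gene. Where in the gene the residual reads lay, and what they came from, was not tested.

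Oocyte markers were high in every library. The summed level of 13 such genes was 11016, 9050 and 9339 CPM in the rhau-sko libraries and 15104, 13982 and 15777 CPM in the c libraries. Of these genes 8 were lower and 2 higher, with 4 lower without c3-DRB. The higher count was 0 without the DRB term and 1 without rhau-sko5, rhau-sko7-DRB, rhau-sko8-DRB, c2 or c3-DRB. For these and the other marker lists, the shares among all genes tested were 17.9% lower and 19.9% higher. The sum over 19 granulosa and cumulus cell markers was 153.5, 122.6 and 184.3 CPM in rhau-sko against 81.7, 118 and 78.5 CPM in c. Amh was at 0 in every library, and Foxl2, Amhr2 and Inha stayed below the filter on low counts. Of the 10 that passed it, 4 were higher and none lower, while 2 were lower without rhau-sko8-DRB or c3-DRB. The median of the 10 was 0.13, with -0.91 without DRB and 0.88 with DRB, and their values ran between -1.90 for Fst and 4.32 for Fshr. Fshr, the receptor for follicle-stimulating hormone on granulosa cells, had 31.2, 15.9 and 23.5 CPM in rhau-sko and 2.68, 0.295 and 1.06 CPM in c. The sum over 11 theca and stroma markers was 10.2, 7.87 and 6.08 CPM in rhau-sko and 4.28, 5.05 and 3.71 CPM in c, with Col3a1 at 0. Of 4 tested, Dcn was higher (2.18 ± 0.34), while Star (0.53 ± 0.57), Cyp11a1 (-1.11 ± 0.93) and Pdgfra (-2.03 ± 0.95) were not called, and the median was -0.29. The sum over immune, endothelial and blood markers went the other way, at 66.3, 51.5 and 63.0 CPM in rhau-sko and 91.7, 83.5 and 96.1 CPM in c. Ptprc alone was called higher, with a log2 fold change of 6.45, or 5.30 to 7.09 when each library was left out. Of 7 tested, 4 were lower and 1 higher, with 2 lower without c3-DRB, and C1qa, Hbb-b1 and Hba-a1 were at 0. The share of counts on the mitochondrial genome was 0.302, 0.397 and 0.633% in rhau-sko and 0.126, 0.134 and 0.170% in c. The part of these differences in the results below was not tested.

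Of 15923 genes tested, 6020 were called, 37.8% of the total. Among them 3163 genes (19.9%) were higher and 2857 genes (17.9%) were lower in rhau-sko. Larger changes leaned upward: 1875 genes were at least 2-fold higher and 1140 at least 2-fold lower, and at 4-fold or more the counts were 868 and 271. The direction of calls of any size varied with level. At a mean log2 CPM under 0, 415 genes were higher and 156 lower, and at 0 to 2 the counts were 614 and 417. They were 746 and 884 at 4 to 6, and 155 and 104 at 8 to 10. Groups that did not overlap in CPM made up 49.1% of all genes tested, 92.7% of the higher calls and 93.2% of the lower calls. The median log2 fold change over all genes was -0.01. In a fit without c3-DRB, here and below, the genotype term rests on rhau-sko5 against c1 and c2 alone. Leaving out c3-DRB, the one c library with DRB, brought the calls down to 2122 higher and 1577 lower.

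**Figure D1:**
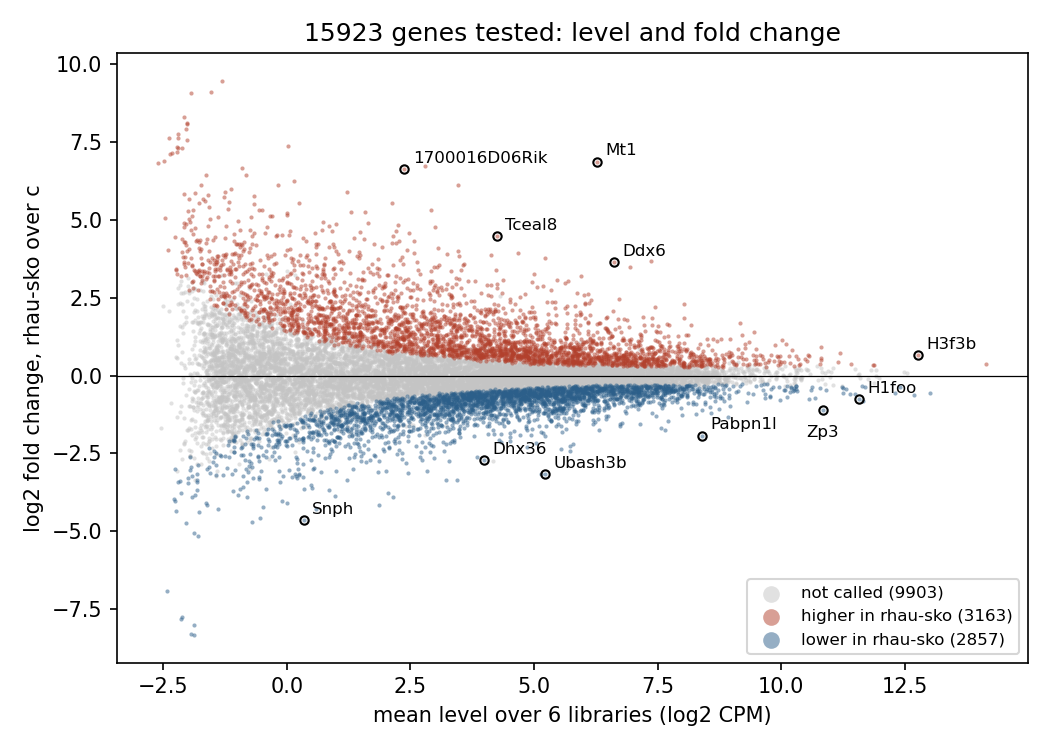
Each point is 1 of the 15923 genes tested, by its mean level over the 6 libraries (x axis, log2 CPM) and its log2 fold change, rhau-sko over c (y axis); red points were called higher, blue points lower and grey points were not called. The plot shows calls at every level, with Mt1 at 6.88 and Tceal8 at 4.48 standing clear above genes of like level and Ubash3b at -3.16 and Dhx36 at -2.72 below.

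Among genes of at least moderate level, Mt1 showed the largest increase. Mt1 (chr8:96702989-96704225, plus strand) encodes a metallothionein, a small cysteine-rich protein that binds zinc and copper. It had 835.9, 846.0 and 882.7 CPM in the rhau-sko libraries, against 5.89, 7.21 and 8.01 CPM in the c libraries. The groups were far apart and each was tight across both DRB conditions. The log2 fold change was 6.88 ± 0.14 (edgeR adjusted p = 5.7e-10), a 118-fold difference. Mt4, a metallothionein first known from stratified epithelia, was also higher, with 48.1, 60.9 and 49.3 CPM in rhau-sko and 8.25, 10.4 and 10.8 CPM in c (2.36 ± 0.16, edgeR adjusted p = 3.3e-06). Mt2, whose start lies 6471 bases upstream of that of Mt1 and which is usually induced with it by metals, stayed under 1 CPM in all 6 libraries and was not called (-0.12 ± 0.68).

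The promoters of this neighbouring pair are shown because Mt1 was called and Mt2, at the floor of detection, was not. The error of Mt2 leaves room for a change of 2-fold or more either way. Each is the RefSeq window around the annotated start on mouse build GRCm38.p6, 5′ to 3′ on the gene's strand. Mt1 lies at chr8:94178839-94179138 and Mt2 at chr8:94172368-94172667, both on the plus strand. Capitals mark matches to the core of the metal response element, TGCACNC or TGCGCNC, on either strand, the site through which the zinc-sensing factor MTF1 acts on metallothionein genes.
Mt1: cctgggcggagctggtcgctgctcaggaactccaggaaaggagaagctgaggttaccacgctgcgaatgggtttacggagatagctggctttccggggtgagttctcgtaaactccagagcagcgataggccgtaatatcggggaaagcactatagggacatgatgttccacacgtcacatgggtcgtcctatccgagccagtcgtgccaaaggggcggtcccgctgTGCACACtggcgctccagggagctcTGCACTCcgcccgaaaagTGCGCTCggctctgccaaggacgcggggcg
Mt2: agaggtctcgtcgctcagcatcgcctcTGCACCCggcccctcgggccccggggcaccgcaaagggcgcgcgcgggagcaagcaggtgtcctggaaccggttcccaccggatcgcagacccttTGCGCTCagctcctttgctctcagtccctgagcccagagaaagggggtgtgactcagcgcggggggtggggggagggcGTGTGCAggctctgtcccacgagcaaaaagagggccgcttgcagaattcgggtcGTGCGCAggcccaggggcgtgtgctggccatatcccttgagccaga
The Mt1 window holds 3 cores, which begin at bases -23, 3 and 21 relative to the start. The Mt2 window holds 4, which begin at bases -223, -128, -50 and 5, the last pair on the minus strand. Of 32851 RefSeq promoter windows of the same length, 25.7% hold at least 1 such core and 1.31% hold at least 3. A match describes the letters in the window and does not show that a factor was bound.

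Of 24 tested genes of the metallothionein and zinc list, 3 were higher and 5 lower, with a median log2 fold change of -0.33. The higher ones were Mt1, Mt4 and the zinc importer Slc39a5 (1.98 ± 0.71). Zinc exporters accounted for 3 of the lower calls among 8 tested. Among all genes, 19.9% were higher and 17.9% lower. Slc30a4, which moves zinc into vesicles, had 19.6, 16.9 and 21.4 CPM in rhau-sko and 58.5, 54.0 and 48.4 CPM in c (-1.43 ± 0.15, edgeR adjusted p = 4.7e-05). The groups did not overlap. Slc30a3, the synaptic vesicle zinc transporter of neurons, changed by -0.87 ± 0.15. Mtf1, the zinc-sensing transcription factor itself, had 100.01, 94.7 and 112.4 CPM in rhau-sko and 128.1, 137.8 and 151.8 CPM in c, a change of -0.48 ± 0.12 whose call was lost without c3-DRB, where the list had 3 lower calls.

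Ddx6 was the most changed member of the maternal mRNA storage list. DDX6 is an RNA helicase of P-bodies and oocyte storage particles that holds mRNAs untranslated. Its mRNA (chr9:44412975-44448814, plus strand) had 287.7, 434.4 and 339.4 CPM in the rhau-sko libraries, against 29.9, 27.4 and 24.9 CPM in the c libraries. Every rhau-sko library lay far above every c library. The log2 fold change was 3.64 ± 0.17 (edgeR adjusted p = 5.1e-07). Lsm14b, a partner of DDX6 in these particles, had 389.1, 566.6 and 398.8 CPM in rhau-sko and 181.8, 160.3 and 181.0 CPM in c (1.30 ± 0.15).

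Other storage factors were lower. Zar1, an oocyte RNA-binding protein needed for the first cleavages, had 210.4, 278.3 and 230.4 CPM in rhau-sko and 358.4, 353.1 and 531.3 CPM in c (-0.91 ± 0.12, edgeR adjusted p = 0.00018). Its relative Zar1l changed by -0.59 ± 0.10, and Patl2, an oocyte translational repressor, by -0.95 ± 0.13. None of these 3 overlapped between groups. Over the whole list, 10 of 29 tested genes were higher and 5 lower, with a median of -0.04, beside 19.9% and 17.9% among all genes. The higher count fell to 5 without rhau-sko5, the only rhau-sko library without DRB, and the lower count to 3 without c1.

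The other genes with the largest increases belonged to many different families. Hnmt, which methylates and inactivates histamine, had 565.5, 528.6 and 619.0 CPM in the rhau-sko libraries and 54.5, 53.3 and 37.2 CPM in the c libraries (3.67 ± 0.15, edgeR adjusted p = 2.4e-07). Tceal8, a small X-linked member of a family related to elongation factor TFIIS, had 67.0, 78.2 and 149.3 CPM in rhau-sko and 3.00, 6.74 and 2.82 CPM in c (4.48 ± 0.42). In both genes the lowest rhau-sko library was well above the highest c library. Next came Krt25, a hair follicle keratin (3.94 ± 0.19), Klhl7, an adaptor of CUL3 ubiquitin ligases (3.88 ± 0.23), the unnamed transcript RP23-76I20.1 (3.50 ± 0.19) and Rbms1, an RNA-binding protein (3.38 ± 0.21). The septin Sept14 followed at 3.27 ± 0.13, and the mitochondrial glycerol-3-phosphate dehydrogenase Gpd2 at 3.21 ± 0.15. The list of 14 was completed by the membrane glycoprotein Cd200 (3.06 ± 0.17), the beta-defensin Defb41 (3.06 ± 0.26), the CUB and sushi domain gene Csmd3 (3.03 ± 0.16) and the tetraspanin Tspan8 (2.99 ± 0.20).

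The largest decreases were smaller. Ubash3b (chr9:40819181-40969780, minus strand), a phosphatase known for damping T cell receptor signals, had 11.7, 11.7 and 13.6 CPM in the rhau-sko libraries and 130.2, 110.4 and 99.7 CPM in the c libraries (-3.16 ± 0.15, edgeR adjusted p = 5.1e-07). Gpx6, a glutathione peroxidase, had 8.94, 12.5 and 15.7 CPM in rhau-sko and 110.3, 103.1 and 95.5 CPM in c (-3.15 ± 0.20). Neither gene came near an overlap. Nfil3, a basic leucine zipper repressor, had 21.9, 20.8 and 27.8 CPM in rhau-sko and 105.9, 124.8 and 135.9 CPM in c (-2.44 ± 0.15). Krt12, a corneal keratin, changed by -2.36 ± 0.22, and Ethe1, a mitochondrial persulfide dioxygenase, by -2.28 ± 0.19. Gprc5c, an orphan G-protein-coupled receptor, changed by -2.28 ± 0.15.

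Ifitm3, an interferon-induced membrane protein also expressed in germ cells, spread over 11.9, 26.6 and 65.0 CPM in rhau-sko, against 119.5, 106.0 and 108.0 CPM in c (-2.20 ± 0.45). Its value was -3.25 without DRB and -1.23 with DRB, and the interaction was not called (2.01 ± 0.58, edgeR adjusted p = 0.460). Xlr3b, one of a set of near-identical X-linked copies whose counts are uncertain, had 8.88, 4.77 and 25.4 CPM in rhau-sko and 70.1, 52.96 and 34.4 CPM in c (-1.97 ± 0.55). Without rhau-sko5 its adjusted p was 0.204, the only call among these 28 genes that was lost when a library was left out. Mllt11 (-2.18 ± 0.18), the helicase gene Znfx1 (-2.13 ± 0.19), the LIM-domain gene Crip2 (-2.07 ± 0.25), the ciliary transport gene Rabl5 (-1.94 ± 0.14) and the sodium pump regulator Fxyd6 (-1.90 ± 0.15) made up most of the rest. Pabpn1l is described with the poly(A) factors.

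**Figure D2:**
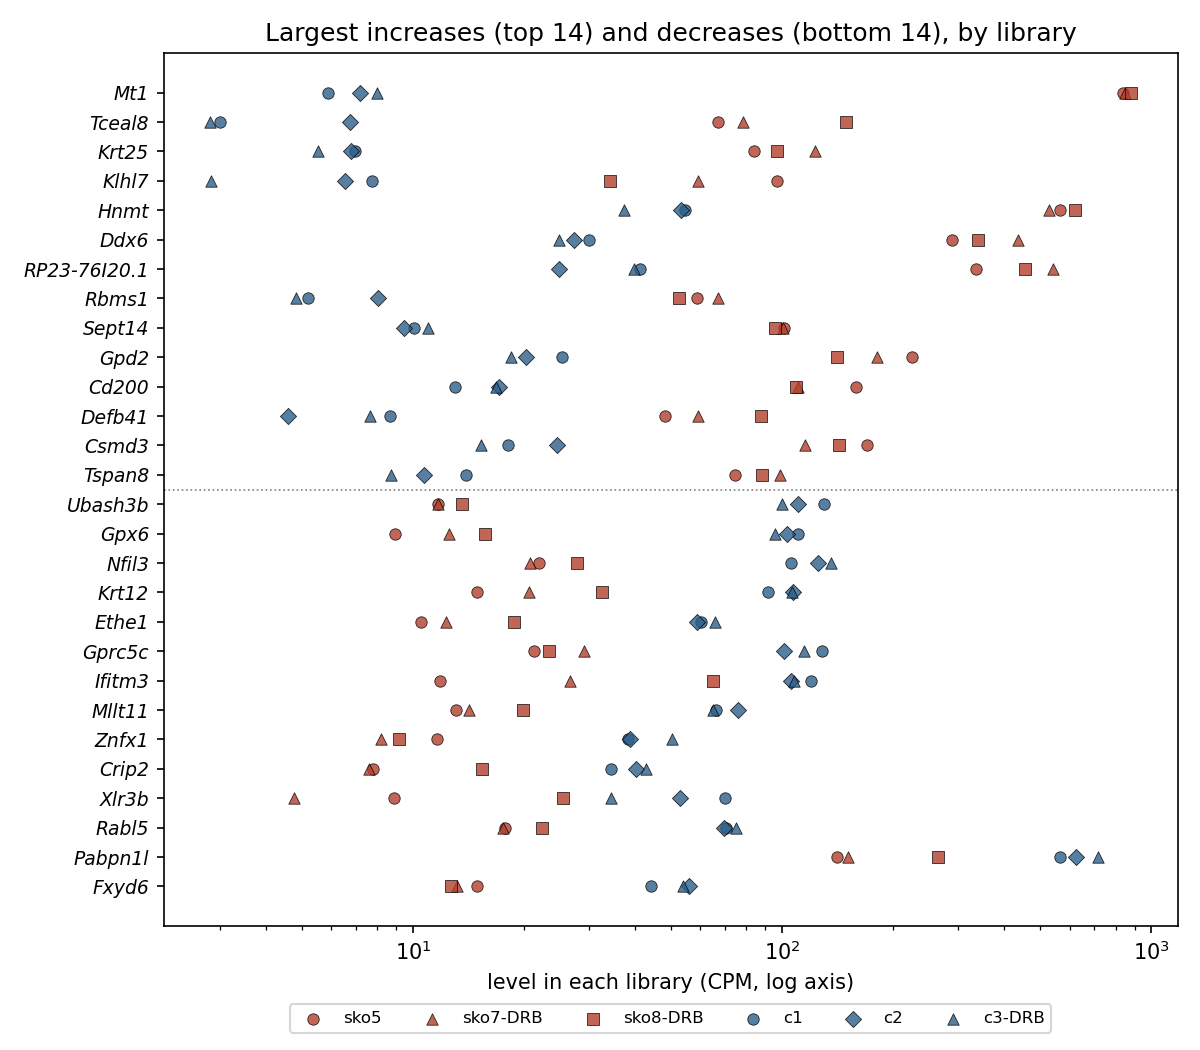
Levels of the 14 genes with the largest increase (upper rows) and the 14 with the largest decrease (lower rows) in each library (x axis, CPM, log scale); red marks are rhau-sko libraries and blue marks c libraries, and the shape gives the library. The genes were chosen for groups that do not overlap, so the red and blue marks are separate in every row by selection, and Xlr3b with 25.4 CPM in rhau-sko8-DRB and 34.4 CPM in c3-DRB has the narrowest gap.

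Guanine-rich promoters occurred on both sides. Runs of 4 GGG blocks spaced 1 to 7 bases apart, on either strand, form the usual sequence pattern searched for G-quadruplexes, and they occur in 18.5% of the RefSeq promoter windows. Of the 14 largest increases, 10 genes had a window and 5 of those held the pattern. Of the 14 largest decreases, 12 had a window and 4 held it. A gene counted when any of its windows held the pattern, whereas the 18.5% is a share of single windows, so these are unlike measures. One promoter from each side is printed with the pattern in capitals, 5′ to 3′ on the gene's strand on GRCm38.p6. Tceal8 lies at chrX:136172202-136172501 and Nfil3 at chr13:52980990-52981289, both on the minus strand.
Tceal8: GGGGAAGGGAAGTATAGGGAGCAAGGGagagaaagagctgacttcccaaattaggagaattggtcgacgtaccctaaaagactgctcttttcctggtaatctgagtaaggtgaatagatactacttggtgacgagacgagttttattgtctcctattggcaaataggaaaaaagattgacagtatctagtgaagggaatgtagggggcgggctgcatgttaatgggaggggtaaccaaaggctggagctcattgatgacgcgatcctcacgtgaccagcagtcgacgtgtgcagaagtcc
Nfil3: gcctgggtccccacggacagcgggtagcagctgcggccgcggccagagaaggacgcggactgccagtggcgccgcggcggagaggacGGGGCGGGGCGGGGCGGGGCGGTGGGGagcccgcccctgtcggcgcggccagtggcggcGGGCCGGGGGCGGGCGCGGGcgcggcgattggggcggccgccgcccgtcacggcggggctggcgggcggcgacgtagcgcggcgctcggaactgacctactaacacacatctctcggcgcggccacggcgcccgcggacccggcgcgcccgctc
Tceal8 rose and holds 1 stretch, at bases -250 to -224 from its start. Nfil3 fell and holds 2, at bases -163 to -137 and -104 to -85, as do 3.42% of the windows. A window was found for 72.4% of the tested genes, too few for a comparison of the pattern between called and uncalled genes.

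Some genes were near absent in one genotype. There were 27 genes under 1 CPM in every c library and over 5 CPM in every rhau-sko library, and 4 in the opposite case. The transcript 1700016D06Rik had 63.1, 53.1 and 31.5 CPM in rhau-sko, against 0.321, 0.812 and 0.499 CPM in c. Dio3, which inactivates thyroid hormone and is imprinted, had 23.1, 35.7 and 31.8 CPM in rhau-sko and 0.562, 0.713 and 0.499 CPM in c. Pcp4, a calmodulin regulator of neurons, had 17.8, 22.8 and 22.0 CPM in rhau-sko and 0.830, 0.910 and 0.881 CPM in c. The transcript Gm12290 completed the 4 with the highest levels. All 27 came from groups that the threshold itself keeps apart, so the count is a description.

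Further genes of this kind were named after their values were seen. They included Tal1, a blood lineage transcription factor (7.26, 5.63 and 7.90 CPM in rhau-sko against 0.107, 0.148 and 0.176 CPM in c), and Gbp9, an interferon-inducible GTPase (19.3, 14.7 and 9.66 CPM against 0.375, 0.221 and 0.587 CPM in c). The 4 genes lost in rhau-sko were Snph, a neuronal syntaphilin, Chst9, a sulfotransferase, Tlr8, an endosomal RNA sensor, and BX470220.1. Snph had 0.318, 0.0866 and 0.294 CPM in rhau-sko and 5.17, 5.09 and 7.72 CPM in c.

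Genes for the egg coat and egg surface were lower in rhau-sko. Of 9 tested, 6 were lower and none higher, with a median log2 fold change of -0.47, beside 17.9% lower among all genes. Zp3, the sperm-binding glycoprotein of the zona pellucida, had 1291, 1156 and 1372 CPM in the rhau-sko libraries and 2647, 2497 and 2900 CPM in the c libraries. The groups were separated by a wide gap (-1.10 ± 0.10, edgeR adjusted p = 2.2e-05). Zp1, which cross-links zona filaments, changed by -1.19 ± 0.12. Zp2, the component cleaved after fertilisation, changed by -0.47 ± 0.10, and its call was lost without c3-DRB (adjusted p = 0.0973).

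Astl, the egg protease ovastacin that cleaves ZP2, had 65.3, 58.3 and 63.4 CPM in rhau-sko and 180.1, 158.4 and 219.5 CPM in c (-1.61 ± 0.13, edgeR adjusted p = 1e-05). Folr4, the sperm receptor Juno, had 54.5, 45.3 and 59.1 CPM in rhau-sko and 100.04, 109.4 and 140.2 CPM in c (-1.18 ± 0.15). Both were clear of overlap. Cd9, the egg tetraspanin needed for fusion with sperm, had 408.7, 426.9 and 427.2 CPM in rhau-sko and 460.9, 399.9 and 390.6 CPM in c and was not called (0.03 ± 0.11).

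Factors that the oocyte secretes to its follicle were lower in 3 of 4 cases. For the lists of this paragraph, the shares among all genes were 17.9% lower and 19.9% higher. Fgf8, which acts on cumulus cell glycolysis, had 19.1, 17.3 and 22.5 CPM in rhau-sko and 33.3, 39.9 and 60.2 CPM in c (-1.27 ± 0.18, edgeR adjusted p = 0.00036). Bmp15 had 1132, 708.1 and 762.4 CPM in rhau-sko and 1482, 1430 and 1456 CPM in c (-0.67 ± 0.13). Gdf9 had 3022, 1916 and 2052 CPM in rhau-sko and 3614, 3475 and 3876 CPM in c (-0.60 ± 0.14). In Bmp15 and Gdf9 rhau-sko5 lay nearest to c, and both calls were lost without c3-DRB, which brought the count to 1. Mtor, the growth kinase, rose (0.77 ± 0.17), but its call was lost without c3-DRB. Over all 19 growth and follicle signal genes, 4 were higher and 7 lower, with 2 higher without rhau-sko5, c2 or c3-DRB, 4 lower without rhau-sko8-DRB and 2 lower without c3-DRB. In the subcortical maternal complex, which the early embryo needs, 4 of 10 genes were lower and none higher. Of its members, Tle6 changed by -0.71 ± 0.12, Ooep by -0.54 ± 0.09 and 2410004A20Rik by -0.65 ± 0.10, while Nlrp5 was not called (-0.26 ± 0.12).

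Transcription factors of the oocyte were also lower more than higher, at 6 against 1 of 17, with a median of -0.27. Beside these and the Obox genes below, 17.9% of all genes were lower and 19.9% higher. Without c1 or c3-DRB the lower count was 3, and the single higher call was 0 without rhau-sko7-DRB or c1 and 3 without rhau-sko8-DRB. Sall4, a zinc finger factor of oocyte growth, had 725.2, 591.8 and 531.2 CPM in rhau-sko and 1283, 1093 and 915.9 CPM in c (-0.71 ± 0.10, edgeR adjusted p = 0.00041). Gata4, better known from granulosa cells, had 1.72, 1.99 and 2.09 CPM in rhau-sko and 6.94, 6.22 and 8.28 CPM in c (-1.98 ± 0.26). Neither overlapped. The Obox homeobox genes went up: 4 of 5 tested were higher and none lower. Obox5 had 1873, 1693 and 2046 CPM in rhau-sko and 1058, 1281 and 1225 CPM in c (0.64 ± 0.11). These genes are near-identical copies, so that reads may have been split or shared among them, and the split between members is uncertain.

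Genes of meiotic arrest and resumption were lower in 13 of 39 and higher in 3, with a median of -0.18. The shares among all genes were 17.9% lower and 19.9% higher. Mos, the kinase that starts the MAP kinase cascade of maturing oocytes, had 213.0, 191.7 and 211.1 CPM in the rhau-sko libraries and 438.1, 444.4 and 530.7 CPM in the c libraries. Each group was tight and the gap wide (-1.22 ± 0.11, edgeR adjusted p = 1.8e-05). Cdc20, the activator of the anaphase-promoting complex, had 57.2, 54.5 and 58.2 CPM in rhau-sko and 137.7, 131.9 and 143.7 CPM in c (-1.29 ± 0.11). Btrc, a substrate receptor of SCF ubiquitin ligases, changed by -0.63 ± 0.11. The lower count was 8 without c1 and 4 without c3-DRB, and the higher count was between 0 and 1 without rhau-sko5, c1, c2 or c3-DRB. Gpr3, the receptor that keeps cyclic AMP high during arrest, had 5.92, 5.37 and 4.19 CPM in rhau-sko and 10.8, 8.86 and 13.6 CPM in c (-1.12 ± 0.25), a call that was lost without c3-DRB.

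Spindle and kinetochore genes gave 6 lower and 2 higher of 23. Beside this list and the meiotic chromosome list below, 17.9% of all genes were lower and 19.9% higher. Ndc80, which ties kinetochores to microtubules, had 66.4, 62.3 and 63.5 CPM in rhau-sko and 142.7, 129.2 and 126.0 CPM in c (-1.02 ± 0.11, edgeR adjusted p = 6.5e-05). Cenpf, a kinetochore protein, changed by -0.69 ± 0.11. Without c3-DRB, 2 were lower, and the higher count ranged from 0 to 2 when each library was left out. Among genes of meiotic chromosomes, 7 of 26 were higher and 4 lower. Tex12, of the central element of the synaptonemal complex, had 14.1, 14.3 and 20.7 CPM in rhau-sko and 43.0, 56.9 and 51.8 CPM in c (-1.69 ± 0.19). Wapal, which releases cohesin, changed by 0.64 ± 0.09, and Hormad2, an axis protein, by 1.18 ± 0.18. The higher count was 4 without rhau-sko5 and 4 without c3-DRB.

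**Figure D3:**
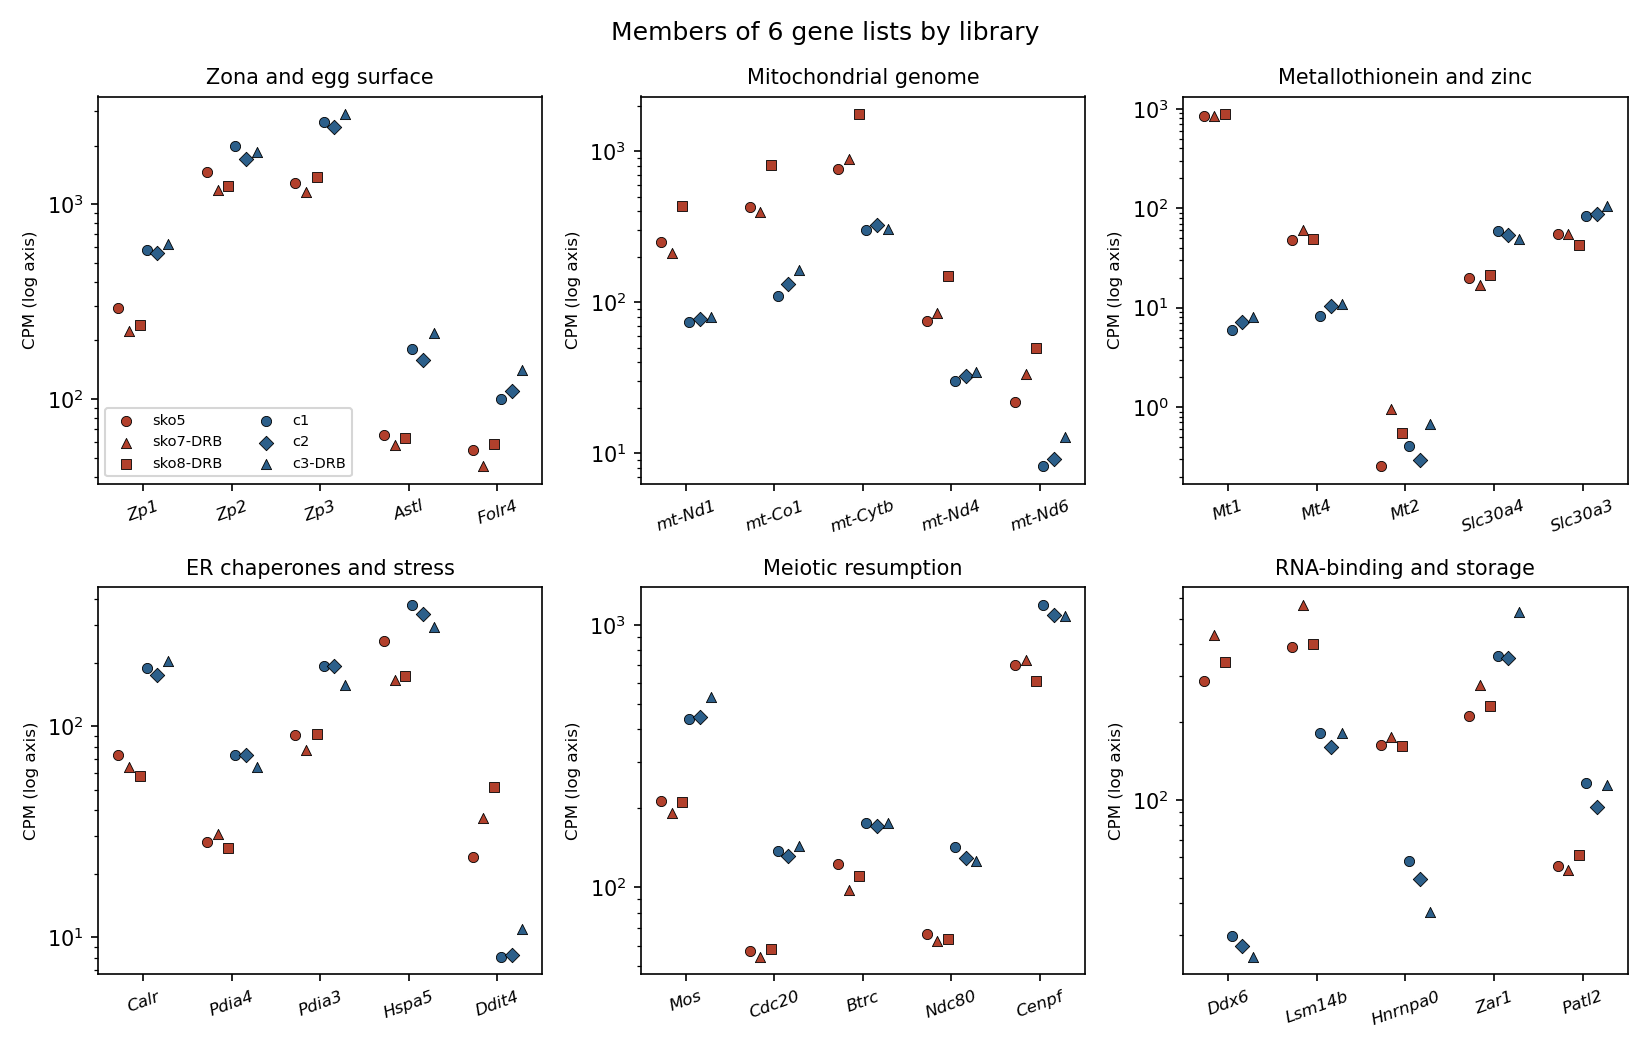
Levels of 5 members from each of 6 gene groups by library (y axes, CPM, log scale); red marks are rhau-sko5, rhau-sko7-DRB and rhau-sko8-DRB and blue marks c1, c2 and c3-DRB. The zona and meiotic genes shown were chosen among members called lower, and lie lower in all rhau-sko libraries. Of their lists, 6 of 9 zona and sperm-binding, 13 of 39 resumption and 6 of 23 spindle genes were lower. None, 3 and 2 of these lists were higher. The mitochondrially encoded genes shown, chosen among called members, are higher with rhau-sko8-DRB the highest, and Mt2 overlaps between groups under 1 CPM.

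The poly(A) list held 6 lower and 5 higher genes of 30, close to the 17.9% lower and 19.9% higher among all genes. Pabpn1l, an oocyte poly(A)-binding protein that brings in the deadenylation adaptor BTG4, had 140.6, 150.8 and 265.1 CPM in the rhau-sko libraries and 565.3, 624.5 and 718.9 CPM in the c libraries. The highest rhau-sko library was below the lowest c library (-1.93 ± 0.19, edgeR adjusted p = 3.3e-05). Pabpc1l, the embryonic poly(A)-binding protein, changed by -0.89 ± 0.14, and Tob2, an adaptor of the CCR4-NOT deadenylase, by -1.03 ± 0.15. Btg4 itself had 2022, 2116 and 2524 CPM in rhau-sko and 2713, 3165 and 2918 CPM in c (-0.44 ± 0.11), and its call was lost without rhau-sko5. The 5 higher calls were 1 without rhau-sko5, 2 without c1, c2 or the DRB term and 3 without c3-DRB.

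In RNA decay, the nonsense-mediated decay group with the m6A readers was higher in 6 of 13 genes and lower in 1, with a median of 0.38. Upf2, a core factor of that pathway, had 138.4, 151.9 and 146.6 CPM in rhau-sko and 56.4, 63.8 and 49.3 CPM in c (1.40 ± 0.13, edgeR adjusted p = 2.2e-05). Upf3a, a paralogue of Upf3b that can partly replace it, had 23.99, 24 and 21.5 CPM in rhau-sko and 9.40, 10.5 and 13.4 CPM in c (1.02 ± 0.18). Upf3b, which links the exon junction complex to UPF2, went the other way, with 21.7, 26.8 and 27.5 CPM in rhau-sko and 74.6, 70.4 and 77.7 CPM in c (-1.63 ± 0.13). None of these overlapped. Without c3-DRB, 3 of the group were higher. The shares among all genes were 19.9% higher and 17.9% lower. Over all 42 decay genes, 9 were higher and 7 lower, with 5 higher without c3-DRB, 4 lower without rhau-sko5 or c2 and 3 lower without c1.

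Splicing factors leaned upward, with 13 of 36 higher and 2 lower, and the hnRNP proteins among them with 10 of 18 higher and none lower. Their medians were 0.26 and 0.39, and 19.9% of all genes were higher. Hnrnpa0 had 162.6, 175.2 and 161.1 CPM in rhau-sko and 58.3, 49.5 and 37.0 CPM in c (1.88 ± 0.15, edgeR adjusted p = 1e-05). Hnrnpd, which binds AU-rich elements, changed by 0.94 ± 0.11, and Hnrnpu, a nuclear scaffold protein, by 0.56 ± 0.10. Hnrnph3 was below 4 CPM in all 6 libraries and was not called (-0.91 ± 0.37). Without rhau-sko5 the higher calls were 7 for splicing factors and 5 for hnRNP proteins, and the lower calls of the whole list were 4 without rhau-sko8-DRB and 1 without c3-DRB.

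Genes of other proteins that unwind or bind G-quadruplexes changed in both directions, beside 19.9% higher and 17.9% lower among all genes. Of the RNA-directed helicases and binders, 11 of 25 were higher and 1 lower, with a median of 0.27. Of the DNA-directed helicases, 1 of 12 was higher and 3 were lower. Dhx9, a helicase that unwinds G-quadruplexes and R-loops, had 19, 16.5 and 18.3 CPM in rhau-sko and 7.34, 5.29 and 5.61 CPM in c (1.61 ± 0.21, edgeR adjusted p = 0.00018). Its groups were free of overlap. Ddx5 changed by 0.89 ± 0.11, and Wrn, the Werner syndrome DNA helicase, by 1.00 ± 0.12. Ddx17, a relative of Ddx5, had 4.01, 8.84 and 10.9 CPM in rhau-sko and 16.4, 18.8 and 16.1 CPM in c (-1.39 ± 0.31), and its call was lost without rhau-sko5. The 11 higher calls were 7 without rhau-sko5, 6 without c1, 5 without c3-DRB and 7 without the DRB term.

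Among DEAH-box helicases, the family of DHX36, 4 of 17 were higher and 4 lower, Dhx36 included. The shares among all genes were 19.9% higher and 17.9% lower. Dhx15, a helicase that takes spliceosomes apart, had 140.4, 98.8 and 120.1 CPM in rhau-sko and 29.9, 25.9 and 24.9 CPM in c (2.24 ± 0.13, edgeR adjusted p = 1.7e-06). Dhx29, which acts on structured 5′ leaders in translation initiation, had 59.0, 59.0 and 56.7 CPM in rhau-sko and 97.1, 103.1 and 103.7 CPM in c (-0.80 ± 0.11). Dhx32 changed by 0.69 ± 0.12 and Dhx40 by -0.51 ± 0.11. Of R-loop factors, 4 of 24 were higher and 4 lower. Ddx41 changed by -1.04 ± 0.17 and topoisomerase Top1 by 0.50 ± 0.10. The 4 higher R-loop calls were 1 without rhau-sko5 or c2 and 2 without c1 or the DRB term, and the 4 lower calls were 1 without c3-DRB and 2 without c1 or the DRB term.

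Since DRB acts on P-TEFb, its genes were read with the elongation factors. Of 42, 11 were higher and 5 lower. Of the 11 genes for P-TEFb, the 7SK particle and their activators, 4 were higher and none lower. The shares among all genes, here and for the polymerase list below, were 19.9% higher and 17.9% lower. Ccnt1, the main cyclin of P-TEFb, had 27.0, 23.8 and 20.6 CPM in rhau-sko and 13.2, 15.3 and 13.9 CPM in c (0.80 ± 0.17, edgeR adjusted p = 0.0034). Cdk9 had 9.93, 6.195 and 7.27 CPM in rhau-sko and 6.43, 4.40 and 5.20 CPM in c and was not called (0.63 ± 0.25, edgeR adjusted p = 0.070). The groups overlapped for Cdk9 and not for Ccnt1. Cdk13, which phosphorylates the polymerase tail, changed by 0.87 ± 0.16, and Cdc73, of the PAF1 complex, by 1.17 ± 0.16. Without rhau-sko5, the call on Ccnt1 was lost, the P-TEFb group had 1 higher call and the whole list 4, and the group had 2 without c1, c2 or the DRB term. The list's higher calls were 6 without c1 or c2 and 7 without c3-DRB or the DRB term, and its lower calls were 1 without c3-DRB, 2 without rhau-sko5 or c2 and 8 without rhau-sko7-DRB. Of 68 genes of RNA polymerase II, Mediator and the general factors, 7 were higher and 10 lower, with 3 each without c3-DRB, and the lower count was 4 without rhau-sko5 and 6 without c2 or the DRB term. Med13l, of the Mediator kinase module, had 116.2, 174.6 and 150.1 CPM in rhau-sko and 46.5, 45.6 and 40.1 CPM in c (1.67 ± 0.16).

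All called genes of the mitochondrial genome were higher. Of 10 tested, 9 were called, beside 19.9% higher among all genes, with a median of 1.60. The calls numbered 7 to 9 when each library was left out. The gene mt-Nd1, of complex I, had 251.6, 212.4 and 432.3 CPM in the rhau-sko libraries and 73.9, 77.4 and 79.9 CPM in the c libraries (1.87 ± 0.23, edgeR adjusted p = 0.00013). The gene mt-Cytb, of complex III, had 762.2, 891.9 and 1764 CPM in rhau-sko and 303.0, 327.1 and 305.5 CPM in c (1.70 ± 0.26). In both, the groups did not overlap and rhau-sko8-DRB was the highest. In a separate set of the series labelled as growing oocytes, with 3 Dhx36 sko and 3 control libraries, 1 of 10 was higher and 5 were lower.

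Nuclear genes of oxidative phosphorylation were lower in 16 of 78, close to the 17.9% of all genes, and higher in 7, with a median of -0.11. Ndufs4, an accessory subunit of complex I, had 45.9, 55.6 and 62.9 CPM in rhau-sko and 109.3, 104.9 and 111.5 CPM in c (-1.07 ± 0.13, edgeR adjusted p = 0.00011). Cox7a2l, which joins respiratory complexes, had 354.5, 330.7 and 370.3 CPM in rhau-sko and 210.8, 204.4 and 198.0 CPM in c (0.80 ± 0.10). Neither overlapped. The lower count was 6 without rhau-sko5 and 8 without the DRB term, and the higher count 2 without c3-DRB. The summed share of the mitochondrial genome moved with genotype, and its part in these values was not tested.

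Cytosolic ribosomal protein genes were lower in 21 of 78 and higher in 3, with small changes and a median of -0.16. For this list and the initiation factors below, the shares among all genes were 17.9% lower and 19.9% higher. Rpl18 had 27.6, 44.7 and 37.5 CPM in rhau-sko and 50.7, 49.2 and 71.2 CPM in c (-0.83 ± 0.13, edgeR adjusted p = 0.00067). Rps23 changed by 0.90 ± 0.16. The lower count was 7 without rhau-sko5 and 6 without the DRB term, and the higher count 1 without c3-DRB. Summed over the list, the level was 7669, 10717 and 9445 CPM in rhau-sko and 8990, 9275 and 11181 CPM in c, so the groups overlapped. Translation initiation factors were lower in 12 of 40 and higher in 4. Eif2b4, a subunit of the exchange factor of eIF2, had 48.8, 48.7 and 49.4 CPM in rhau-sko and 99.96, 103.0 and 120.0 CPM in c (-1.18 ± 0.12). Eif4h, a helper of eIF4A, changed by 0.75 ± 0.13. Without c3-DRB the counts were 7 lower and 2 higher.

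The list of endoplasmic reticulum chaperones and stress genes was lower in 12 of 31 and higher in 2, with a median of -0.51. Of all genes, 17.9% were lower and 19.9% higher. Calr, a calcium-binding chaperone of the reticulum, had 73.2, 63.8 and 57.8 CPM in the rhau-sko libraries and 188.9, 174.8 and 202.6 CPM in the c libraries (-1.53 ± 0.13, edgeR adjusted p = 1e-05). The disulfide isomerases Pdia4 and Pdia3 changed by -1.26 ± 0.13 and -0.99 ± 0.12. Hspa5, the chaperone BiP, had 251.7, 166.2 and 173.4 CPM in rhau-sko and 376.3, 339.2 and 296.0 CPM in c (-0.65 ± 0.11). All 4 were free of overlap. Ppp1r15b and Ppp1r15a, which direct dephosphorylation of eIF2α, changed by -1.34 ± 0.17 and -0.81 ± 0.13. Ddit4, a stress-induced inhibitor of mTOR signalling, rose, with 23.96, 36.8 and 51.2 CPM in rhau-sko and 8.09, 8.24 and 10.9 CPM in c (1.78 ± 0.19). The lower count was 8 without c3-DRB, and the higher count 1 without the DRB term.

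Antioxidant genes were lower in 8 of 36 and higher in 2, Gpx6 being described above. Beside this list and the heat shock and proteasome lists below, 17.9% of all genes were lower and 19.9% higher. Gpx4, which reduces lipid peroxides, had 14.1, 15.1 and 17.7 CPM in rhau-sko and 29.5, 28.7 and 37.4 CPM in c (-1.12 ± 0.15, edgeR adjusted p = 0.00025). Txn1, thioredoxin, changed by -1.13 ± 0.13. Slc7a11, the cystine importer, rose (0.75 ± 0.10), and the higher count was 1 without rhau-sko5, c1, c2 or c3-DRB. The heat shock list gave 4 higher and 3 lower of 21. Hsp90ab1, a cytosolic chaperone, had 186.1, 249.3 and 234.2 CPM in rhau-sko and 447.8, 363.2 and 398.6 CPM in c (-0.92 ± 0.13). Hsph1 changed by 0.59 ± 0.11. Without c3-DRB or the DRB term, 2 heat shock genes were higher. Proteasome genes were lower in 12 of 47 and higher in 6, among them Psmc4, an ATPase of the regulatory particle, at -0.85 ± 0.12. The higher proteasome count was 1 without c3-DRB and 3 without rhau-sko5 or c2.

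Autophagy and lysosome genes were lower in 9 of 25 and higher in 3, with a median of -0.21. Grn, the lysosomal protein progranulin, had 7.19, 4.98 and 5.03 CPM in rhau-sko and 36.4, 33.8 and 38.8 CPM in c (-2.62 ± 0.19, edgeR adjusted p = 4.1e-06). Ctsb, cathepsin B, had 34.3, 21.0 and 34.0 CPM in rhau-sko and 86.2, 82.5 and 75.3 CPM in c (-1.37 ± 0.17). Hexa, a lysosomal hexosaminidase, had 13.9, 9.83 and 8.45 CPM in rhau-sko and 2.81, 4.13 and 3.05 CPM in c (1.80 ± 0.25). All 3 were clear of overlap. Without c3-DRB, 3 of the autophagy and lysosome genes were lower. Apoptosis genes gave 4 higher and 4 lower of 20, beside 19.9% higher and 17.9% lower among all genes. Among the autophagy and death genes together, Bcl2l2, a survival factor, was at 1.92 ± 0.38 and Aifm1 at -0.99 ± 0.13. The 4 lower apoptosis calls were 2 without c1 or c3-DRB.

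In double-strand break and mismatch repair, 9 of 44 were higher and 12 lower, beside 19.9% higher and 17.9% lower among all genes. Msh3, a mismatch sensor, had 429.8, 310.9 and 303.8 CPM in rhau-sko and 230.4, 225.1 and 188.6 CPM in c (0.81 ± 0.10). The higher count was 4 without c1 and 5 without c3-DRB. Of p53 and its targets, 5 of 27 were higher and 3 lower. Trp63, a p53 relative that removes damaged oocytes, had 51.3, 41.0 and 31.9 CPM in rhau-sko and 24.3, 18.0 and 18.7 CPM in c (1.12 ± 0.17). Mdm4, an inhibitor of p53, had 2314, 2031 and 2031 CPM in rhau-sko and 3408, 3667 and 3012 CPM in c (-0.59 ± 0.09). None of these 3 overlapped. The p53 list had 3 higher calls without c1 or c3-DRB and 8 lower without rhau-sko8-DRB.

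Chromatin genes changed in both directions, as did all genes tested, of which 19.9% were higher and 17.9% lower. Linker histones, variants and chaperones were lower in 9 of 23 and higher in 4. H1foo, the oocyte linker histone, had 2369, 2388 and 2442 CPM in rhau-sko and 3395, 3866 and 4482 CPM in c (-0.75 ± 0.10, edgeR adjusted p = 0.00021). H3f3b, one of the genes for histone H3.3, had 8385, 8516 and 8873 CPM in rhau-sko and 6258, 5888 and 4916 CPM in c (0.64 ± 0.10). Both were free of overlap, and without c3-DRB the lower count was 5. Tet1, a 5-methylcytosine dioxygenase, had 40.7, 42.7 and 35.3 CPM in rhau-sko and 14.8, 9.69 and 14.4 CPM in c (1.59 ± 0.19). Dnmt1, the maintenance methyltransferase, had 698.0, 797.8 and 645.3 CPM in rhau-sko and 995.9, 909.7 and 1339 CPM in c (-0.67 ± 0.13), a call lost without c3-DRB, as were all 3 lower calls of the 18 DNA methylation genes.

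Histone lysine methylation genes were higher in 11 of 45 and lower in 9, and 5 each without c3-DRB. Kdm6b, a demethylase of H3K27, had 264.4, 266.2 and 230.0 CPM in rhau-sko and 535.0, 461.2 and 463.6 CPM in c (-0.91 ± 0.11, edgeR adjusted p = 0.00013). Kdm1b, which removes H3K4 methylation ahead of imprinting in growing oocytes, had 373.3, 245.5 and 254.7 CPM in rhau-sko and 210.7, 180.6 and 166.3 CPM in c (0.76 ± 0.12). In small RNA pathways, 8 of 30 were higher and 7 lower. For both lists the shares among all genes were 19.9% higher and 17.9% lower. Eif2c2, the slicer AGO2, had 20.02, 16.5 and 18.4 CPM in rhau-sko and 41.2, 45.9 and 60.4 CPM in c (-1.46 ± 0.17), and Dicer1 changed by 0.52 ± 0.09. The small RNA calls were 5 higher without c2, 4 higher without c3-DRB, 4 lower without rhau-sko5 or c1 and 3 lower without c3-DRB. Actin and tubulin genes were lower in 9 of 34 and higher in 5, and the higher count was 3 without rhau-sko5. Actg1, cytoplasmic gamma-actin, had 62.5, 62.2 and 57.5 CPM in rhau-sko and 24.7, 23.9 and 21.5 CPM in c (1.42 ± 0.13).

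For each list in this paragraph, the shares among all genes were 19.9% higher and 17.9% lower. In the oocyte Nlrp family, 1 of 8 was higher and 3 lower, with 1 lower without c1 and none lower without c3-DRB. Its higher count was between 0 and 2 when each library was left out. Immediate early genes were higher in 2 of 16 and lower in 4, with Dusp1, a MAP kinase phosphatase, at -0.91 ± 0.13, and their higher count was 1 without rhau-sko5, rhau-sko7-DRB, c1, c2 or c3-DRB. Interferon response genes were higher in 5 of 13 and lower in 2, with 1 higher call without c3-DRB, 2 without rhau-sko5 and 3 without c1, and 1 lower call without rhau-sko7-DRB, c1 or c3-DRB. Of 28 replication-dependent histones tested, 7 were lower and 1 higher in these polyadenylated RNA libraries, with 4 lower without rhau-sko5 and 2 without c3-DRB, and none higher without either. Genes of early embryonic activation were higher in 3 of 11 and lower in 1. Dppa2, an early embryonic chromatin factor, had 77.8, 55.0 and 120.9 CPM in rhau-sko and 245.7, 273.6 and 223.9 CPM in c (-1.54 ± 0.25, edgeR adjusted p = 0.00076).

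**Figure D4:**
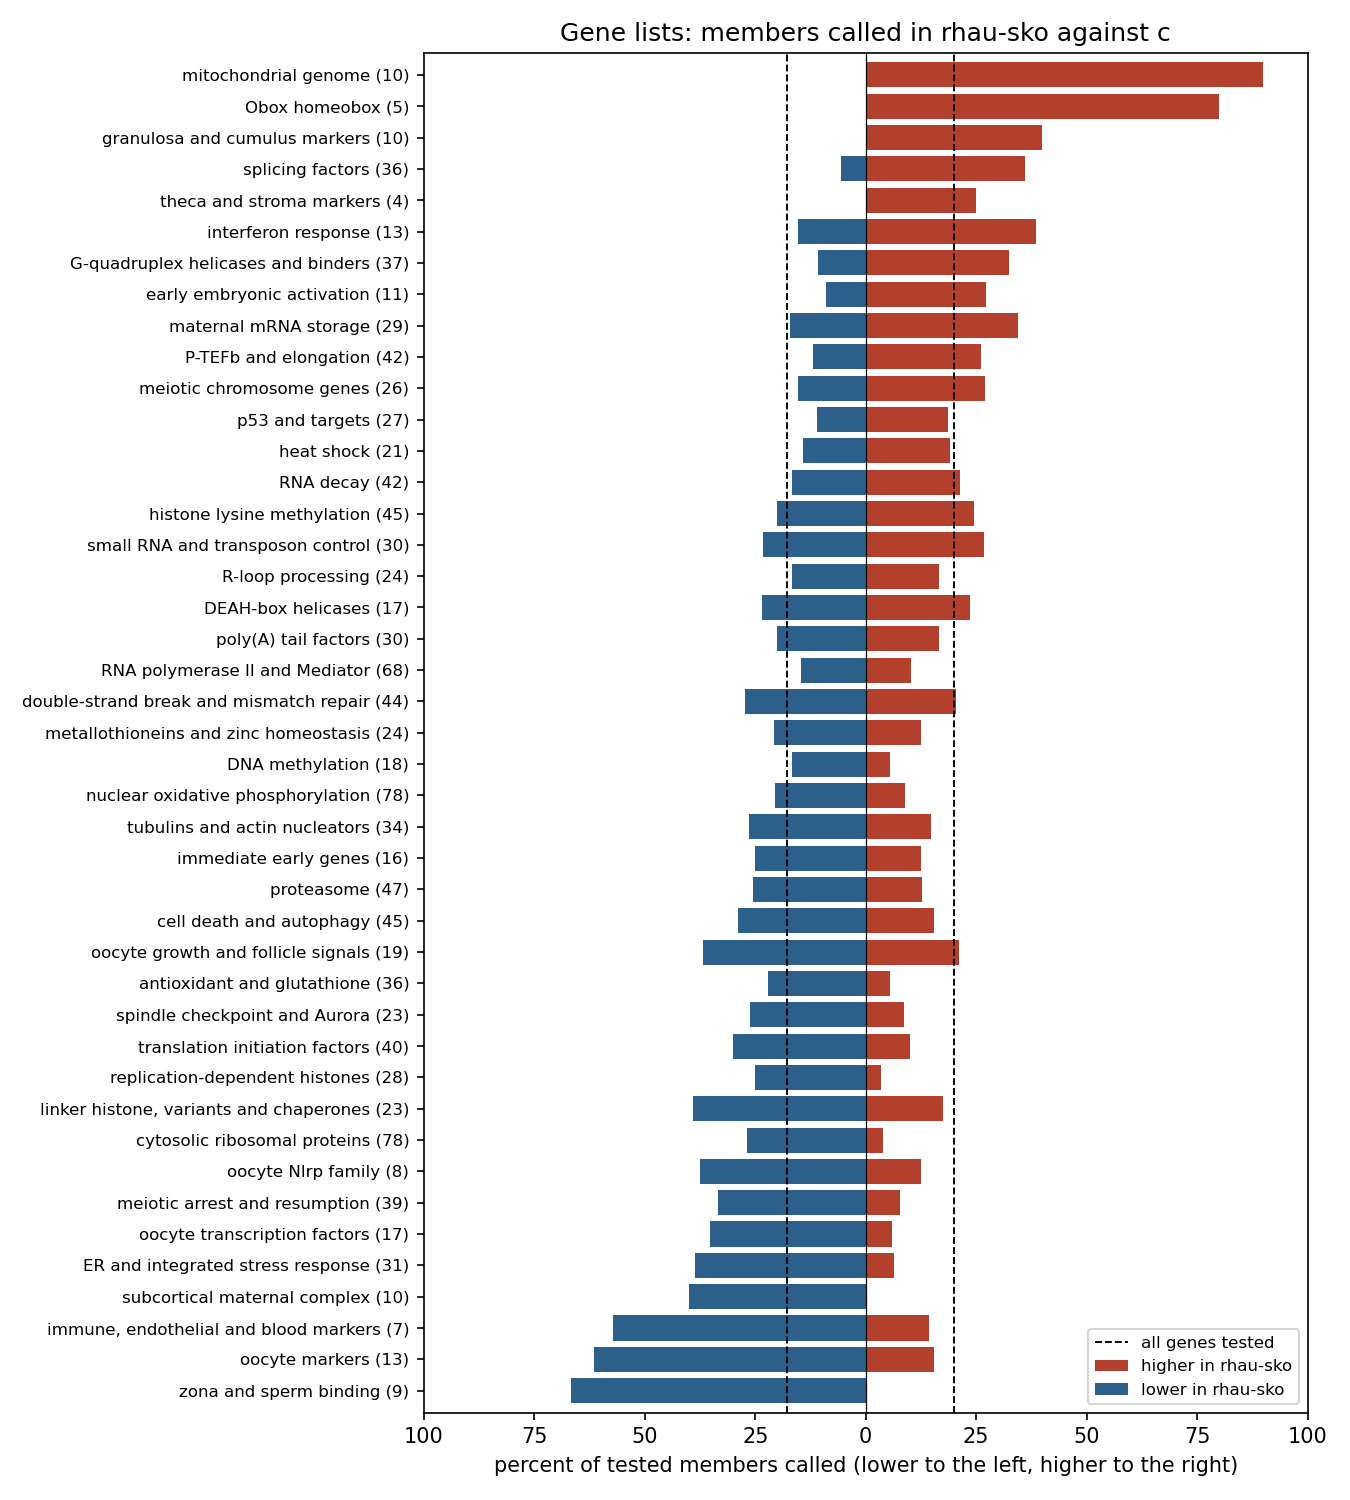
Share of the tested members of each gene list (number tested in brackets) that were called lower (blue, to the left) or higher (red, to the right) in rhau-sko; dashed lines mark the shares among all 15923 genes, 17.9% lower and 19.9% higher. Lists run from the highest surplus of higher calls, with 9 of 10 mitochondrially encoded genes, to the highest surplus of lower calls, with 6 of 9 zona and sperm-binding genes, and the RNA decay, heat shock and R-loop lists lie near both lines.

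The genotype difference was also taken within each DRB condition. Without DRB it rested on 1 rhau-sko and 2 c libraries, and with DRB on 2 rhau-sko and 1 c library, so that within each condition one side had no replicate and was assumed to vary like the others. All 6020 called genes had the same sign in both conditions, beside 63% of the genes not called, and the genotype value is built from both. Mt1 was at 6.99 without DRB and 6.75 with DRB, and Zp3 at -0.99 without and -1.20 with. A test of the interaction, the genotype difference with DRB minus that without, called 5 genes, 0.0314% of those tested, while 1398 had an unadjusted p under 0.05. Of the 5, Terf2ip alone was both abundant and chosen by the naming rule.

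That gene was Terf2ip, which encodes RAP1, a telomere-bound protein. It had 157.6, 114.2 and 117.4 CPM in the rhau-sko libraries, against 19.7, 19.04 and 63.2 CPM in c. Within c, c3-DRB was the highest, and all rhau-sko libraries lay above all c libraries. The genotype value was 3.03 without DRB and 0.87 with DRB, and the interaction was -2.15 ± 0.20 (edgeR adjusted p = 0.0119). The other 4 called genes, named after their values were seen, were Dub1a, 1700047I17Rik2, Spry2 and Gm15859. Dub1a, a deubiquitinase of a multicopy family, had 68.1, 2.08 and 1.58 CPM in rhau-sko and 1.34, 1.13 and 1.09 CPM in c, so its value rested on rhau-sko5, and its genotype call was lost without that library (adjusted p = 0.404). Samhd1, which degrades deoxynucleotides, had values of 0.62 without DRB and -0.38 with DRB, and its interaction was not called.

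**Figure D5:**
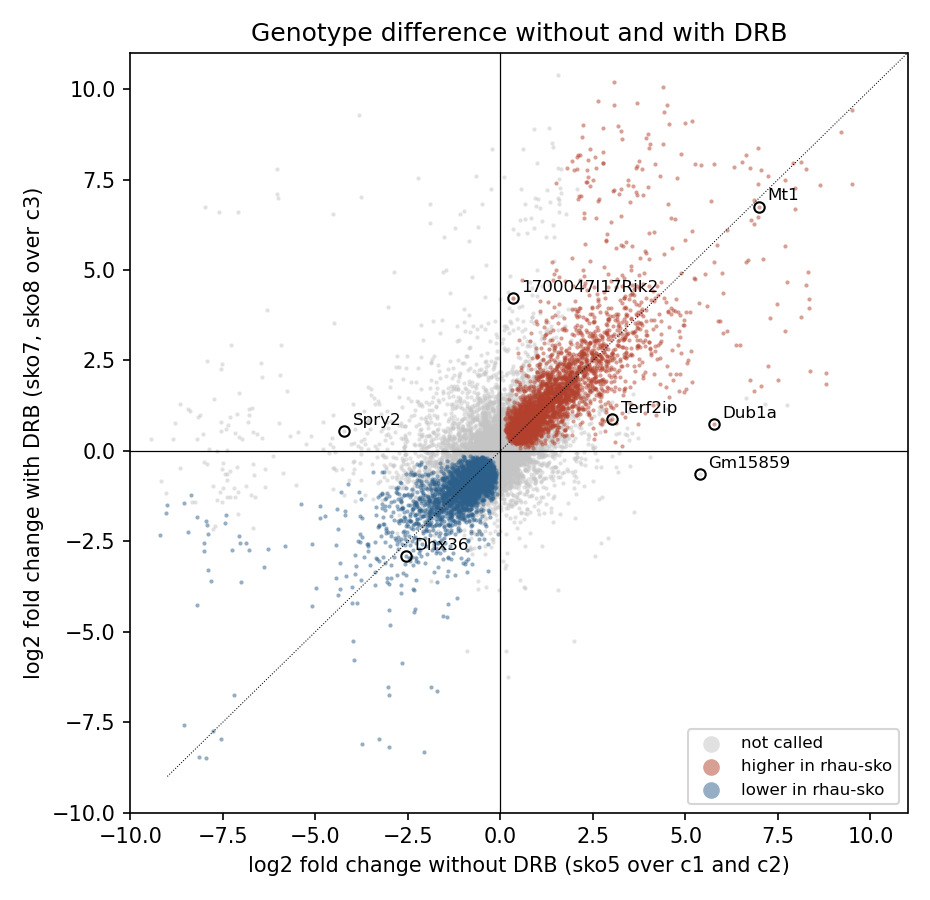
Log2 fold change, rhau-sko over c, without DRB (x axis, rhau-sko5 over c1 and c2) and with DRB (y axis, rhau-sko7-DRB and rhau-sko8-DRB over c3-DRB) for each gene tested; red and blue points were called higher and lower, and the dotted line marks equal values. Called genes lie in the upper right and lower left, and the 5 genes with a called interaction are circled, as are Mt1 and Dhx36.

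The growing oocyte libraries, 3 Dhx36 sko against 3 control, share no library with this comparison and were fitted separately. There 7566 of 14081 genes were called, 53.7%. Of the 2806 genes higher in rhau-sko and tested in both sets, 1955 were higher there too, which is 69.7% of these and 50.7% of the genes higher in growing oocytes, and 89 were lower. Of the 2718 lower genes, 1806 were lower there, 66.4% of these and 51.2% of the genes lower in growing oocytes, and 102 were higher. Among all genes tested in both sets, 28.2% were higher and 25.8% lower in growing oocytes. All 28 genes with the largest changes were called there in the same direction. Mt1 differed by 10.35 in growing oocytes, with 98.2 ± 9.98 CPM in Dhx36 sko and 0.0740 ± 0.101 CPM in control libraries (SD, n = 3 each).

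Some groups did not match between the sets. Zp1 was at -0.26 in growing oocytes and was not called there, Zp2 and Gdf9 were at 0.20 and 0.06 and not called, and Zp3 was lower in both (-1.10 here and -0.58 there). Cd9 was higher in growing oocytes (1.20) and not called here. The gene mt-Cytb was at -0.52 there and was called lower, against 1.70 here. Lsm14b was not called in growing oocytes (-0.34), and Patl2 was higher there (1.08) and lower here (-0.95). Of 36 splicing factors, 13 were higher and 2 lower here, while 7 were higher and 10 lower there. The 18 hnRNP genes among them had 10 higher and none lower here, and 3 higher and 2 lower there. Of 25 RNA-directed G-quadruplex helicases and binders, 11 were higher and 1 lower here, and 6 higher and 6 lower there. Whether these values differed between the sets was not tested.

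Because Dhx36 is the targeted locus, its neighbourhood on chromosome 3 was described as well. Within 10 Mb of Dhx36, 27 of 70 tested genes were higher (38.6%) and 11 lower (15.7%), beside 23.6% higher over chromosome 3. In growing oocytes, 24 of the 64 genes of this window tested there were higher, beside 28.2% of all genes tested in both sets. Of these 24 genes, 16 were higher in both sets, beside 50.7% of all genes higher in growing oocytes. Shox2, a homeobox gene, had 54.6, 41.2 and 20.6 CPM in rhau-sko and 6.54, 5.63 and 4.08 CPM in c (3.05 ± 0.26), and Schip1, a cytoskeletal adaptor gene, had 161.5, 192.6 and 146.2 CPM in rhau-sko and 25.2, 36.9 and 22.8 CPM in c (2.63 ± 0.19). Both were named after their values were seen. The strain around the locus is not given in the labels, and its part in these values was not tested.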

How the data were processed

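Polyadenylated RNA of mouse oocytes was measured by RNA-seq. The deposited table holds whole-number read counts per gene, per the file headers, with gene coordinates on mm9. Per the submitters' processing notes, the tools of the series included featureCounts 2.0.1, HISAT2 2.1.0, STAR 2.5.2b, cutadapt 1.15 and fastp 0.21.0, with no role or order stated. How strand and multiply mapped reads were treated is not stated per the labels, so overlapping, antisense and near-identical genes are uncertain.

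From these counts, genes passing filterByExpr with a minimum count of 10 were fitted in edgeR 4.0.16 (R 4.3.3, limma 3.58.1) with DRB and genotype as terms and TMM scaling. P-values were adjusted by Benjamini-Hochberg over all 15923 genes, with calls under 0.05. The SE was obtained by dividing the size of the fold change (log2) by the root of F. Growing oocytes were fitted apart. On simulated data for this comparison with 15571 genes, 45 of 50 genes raised 4-fold and 42 of 50 lowered 4-fold were recovered. Of genes raised and lowered 2-fold, 27 and 25 of 50 were recovered, and 10 of 15371 unchanged genes were called. The simulation had no DRB effect and far fewer changed genes than were called here, and took its spread from these data. Its rates therefore need not hold for the real comparison.

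Genes were named by rule: of genes called, those averaging a log2 CPM of 4 or more, with no overlap, 1 sign in both DRB conditions and an informative symbol, the 14 largest changes each way. The 2 called members of each list with the smallest p in each direction were added, with the 4 highest of those low in 1 genotype, and for the interaction the 3 smallest p each way. List members may be named beside their list. The members and the lists were chosen with earlier results of these data known. Promoters came from RefSeq on GRCm38.p6, without chromosome 18, matched by symbol. Alternatives covered scaling, DESeq2 1.42.0, filters, the DRB term, all 8 libraries and each library left out. Counting error is small at these depths, and the number of libraries limits the precision. Some genes that this rule names are not reported here.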

Additional observations from a re-analysis of the deposited data

Results flagged for a closer look

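The genotype difference of Terf2ip, the gene of the telomere protein RAP1, differed between the DRB conditions by the test of the interaction, at -2.15 ± 0.20 on the log2 scale (SE; edgeR quasi-likelihood test, adjusted p = 0.0119). It was 0.87 with DRB and 3.03 without DRB. The value with DRB rests on the single c library c3-DRB, which had 63.2 CPM, above both c1 and c2, and the value without DRB on the single rhau-sko library rhau-sko5.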

How the results depend on the processing

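The 6020 calls were between 5714 and 6723 under every change of scaling, tool, filter or model terms on the 6 libraries. With the 2 shallow libraries added, so that all 8 entered, 3917 genes were called, of which 1739 were lower. When each library was left out the calls ranged from 3699 (without c3-DRB) to 6066 (without rhau-sko8-DRB), the higher calls from 2122 to 3130 and the lower calls from 1577 to 2936. Without rhau-sko5 they were 2124 higher and 1968 lower. A setting that removes c3-DRB or rhau-sko5 leaves a group of the DRB design with no library. The genotype term then rests on rhau-sko5 against c1 and c2, or on rhau-sko7-DRB and rhau-sko8-DRB against c3-DRB. A call lost in these settings thus also reflects the fewer libraries that inform the genotype term. The interaction called 1 gene over all 8 libraries and 67 genes in DESeq2, where 5 were called here, and its count was not recomputed with each library left out. Of 181 named genes, none changed direction under these settings. Calls lost numbered 32 with all 8 libraries, 29 without c3-DRB, 16 without rhau-sko5, 13 without the DRB term, 9 each without c1 or c2, 7 without rhau-sko7-DRB, and 1 or 2 in the other settings that lost any. No paired analysis was possible because the groups compared share no replicate number. Depth was ample for genes of moderate level, while genes under 1 CPM, such as Mt2, had wide errors.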
